A study of Homo sapiens with 6 samples.

Results

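ERK feedback regulators and the PEA3 transcription factors were followed through 6 expression arrays of H295R/TR SF-1 cells, as all probe sets that the platform annotation gives to DUSP4, DUSP6, SPRY2, SPRY4, SPRED1, SPRED2, ETV1, ETV4, ETV5 and PHLDA1. These 10 genes had 32 probe sets, of 19775 genes and 54613 probe sets in all. H295R is a human adrenocortical carcinoma cell line, and this subclone carries a construct from which doxycycline (Dox) induces SF-1, a nuclear receptor encoded by NR5A1. Of the arrays, 3 were labelled as basal culture and 3 as culture with Dox at 1 µg/mL, both for 72 h, and both kinds of cells carried the inducible construct. The line is 1 subclone, and cells without the construct given Dox are not analysed here, so effects of the drug and of SF-1 cannot be told apart. The study calls the arrays of a condition biological replicates. Arrays are numbered in accession order inside each label (basal 1 to 3, Dox 1 to 3), which pairs none of them, and values are deposited log2 signals.

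The kinases ERK1 and ERK2 carry signals from growth factor receptors through RAS, RAF and MEK to the nucleus. Active ERK also raises the transcription of genes that restrain it, among them phosphatases that act on MAP kinases and adaptors that act upstream at RAS and RAF, together with the PEA3 group of ETS transcription factors. Transcript levels of these genes are therefore widely read as a record of recent ERK activity. In the adrenal cortex ERK responds to angiotensin II, to growth factors and to ACTH. ETS factors bind DNA around a GGAA core, and SF-1 binds an extended nuclear receptor half-site.

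Promoter sequences are shown for DUSP6, ETV1 and PHLDA1, the 3 genes with the largest differences in the four-array comparison below and between Dox 3 and basal 2. Over all 6 arrays DUSP4 differed more than PHLDA1. RefSeq (GRCh38.p14) gave start site windows, from 250 bases before to 50 after the start, for 7 of the 10 genes, 15 windows in all. The 250 bases before the start follow, for ETV1 before the most upstream of its 6 starts, with GGAA on either strand (GGAA or TTCC) in capitals. They lie on the minus strand at chr12:89352502-89352751 for DUSP6, chr7:13991426-13991675 for ETV1 and chr12:76031777-76032026 for PHLDA1.

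DUSP6: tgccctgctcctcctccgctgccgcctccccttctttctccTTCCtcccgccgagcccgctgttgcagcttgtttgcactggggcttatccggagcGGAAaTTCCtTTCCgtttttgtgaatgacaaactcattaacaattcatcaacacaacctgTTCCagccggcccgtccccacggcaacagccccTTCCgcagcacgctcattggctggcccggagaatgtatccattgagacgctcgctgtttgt

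ETV1: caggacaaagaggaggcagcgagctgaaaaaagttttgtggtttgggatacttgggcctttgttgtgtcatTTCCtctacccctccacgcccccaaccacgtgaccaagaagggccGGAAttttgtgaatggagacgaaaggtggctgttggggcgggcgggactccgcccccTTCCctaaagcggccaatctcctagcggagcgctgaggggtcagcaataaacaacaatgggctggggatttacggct

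PHLDA1: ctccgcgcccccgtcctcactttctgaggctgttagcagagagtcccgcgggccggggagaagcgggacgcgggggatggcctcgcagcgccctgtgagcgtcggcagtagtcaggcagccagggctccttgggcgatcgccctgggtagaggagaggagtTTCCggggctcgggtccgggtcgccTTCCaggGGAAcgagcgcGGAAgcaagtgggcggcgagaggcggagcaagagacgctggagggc

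DUSP6 had 6 such cores, ETV1 3 and PHLDA1 4, and 9.14%, 55.1% and 34.3% of 35116 windows had at least as many in their 250 upstream bases. The core was present in 15 of 15 member windows and in 95.5% of all windows, so it does not set these genes apart. Searched on both strands, the longer ETS site CCGGAAGT (in 4.14% of all windows), the SF-1 site CAAGGTCA (1.28%) and the cAMP response element TGACGTCA (1.85%) were in 0 of the 15 windows. The AP-1 site TGANTCA, which reads alike on both strands and was in 7.71% of all windows, was in 1, with a pair of matches there. The first lay across a downstream start of SPRED2, on the minus strand at chr2:65366764-65366793, shown with the site in capitals.

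SPRED2: accctcggaTGACTCAtccggtacaatgca

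The arrays did not fall into their labelled groups, and this bears on every value that follows. The SD of the difference between Dox 1 and basal 1 over all probe sets was 0.134, and that between Dox 2 and basal 3 was 0.149, against 0.258 to 0.452 between arrays of 1 label. No probe set of the 54613 differed over 2-fold in either of these pairs. Dox 1 and basal 1 are also the only arrays with titles in words, the others having codes. Whether each pair is a single culture measured again was not tested. If it were, n would be smaller than labelled and the SEs and p-values below would not measure the spread between cultures. The remaining arrays, basal 2 and Dox 3, differed from each of these 4 with an SD of 0.389 or more and by 0.318 from each other, and form the array set used as a block further on. NR5A1 was at 5.84, 5.92 and 6.30 in basal 1 to 3 and at 5.55, 6.21 and 6.41 in Dox 1 to 3, with overlapping groups (difference 0.03 ± 0.24, SE, exact permutation p = 1.0). In the four-array comparison described below NR5A1 was at 0.43 ± 0.13 (adjusted p = 0.0808 in limma). It passed with the median over probe sets for all genes (adjusted p = 0.0378 in limma). The arrays of that comparison were chosen from these data, and those left out went the other way, with Dox 1 minus basal 3 at -0.75. With basal 1 and Dox 2 left out in their place and the block kept, NR5A1 was at -0.13 ± 0.34. The summed level of adrenocortical markers was 13.59 to 13.99 in basal and 13.62 to 13.94 in Dox arrays, and 7 of 11 measured markers lay above the array median (5.56 to 5.60) on all 6 arrays, with the inhibin gene INHA below it on all 6. The summed level of stromal, endothelial and blood markers was 9.77 to 10.15 in basal and 9.76 to 10.15 in Dox arrays. Of 14 measured, 5 lay above the array median on all 6 arrays and 6 lay below it on all 6. The 6 below were the endothelial VWF and CDH5, the blood cell genes PTPRC, CD14 and MS4A1, and the stromal LUM. The endothelial PECAM1 and TEK were measured and not among them, so absence of such cells is not shown. Fewer cells with a transcript and less transcript per cell cannot be told apart in bulk RNA.

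The dual-specificity phosphatases remove phosphate from MAP kinases, DUSP6 from ERK in the cytoplasm and DUSP4 in the nucleus. DUSP6 was at 8.91, 10.41 and 7.11 in basal 1 to 3 and at 8.89, 7.12 and 7.87 in Dox 1 to 3. It was high in basal 1, basal 2 and Dox 1 and lower in the 3 others, so that the labelled groups overlapped. DUSP4 was at 5.92, 6.81 and 5.69 in basal and at 5.89, 5.40 and 5.82 in Dox arrays. Its highest value was again in basal 2 and its lowest in Dox 2, and the groups overlapped. In Dox 2 the level of DUSP4 lay below the array median, so it was not shown to be above background there.

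Sprouty and SPRED proteins are adaptors that hold back RAS and RAF. SPRED2 was at 7.25, 7.65 and 6.36 in basal and at 7.14, 6.57 and 6.65 in Dox arrays, the same division of arrays as in DUSP6. SPRED1 was at 7.84, 8.20 and 7.59 in basal and at 7.90, 7.67 and 7.25 in Dox arrays. Its lowest value was in Dox 3 and its highest in basal 2. SPRY2 was at 6.66, 7.10 and 6.87 in basal and at 6.60, 6.90 and 7.08 in Dox arrays. SPRY4 was at 5.47, 6.09 and 5.45 in basal and at 5.41, 5.66 and 5.91 in Dox arrays. In basal 1, basal 3 and Dox 1 the level of SPRY4 lay below the array median. Both Sprouty genes were lowest in Dox 1 and highest in basal 2, unlike DUSP6, which was lowest in basal 3.

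ETV1, ETV4 and ETV5 form the PEA3 group of ETS transcription factors. ETV1 was at 10.21, 10.58 and 9.01 in basal and at 10.23, 8.83 and 8.97 in Dox arrays, again high in basal 1, basal 2 and Dox 1. ETV4 was at 6.36, 6.62 and 6.25 in basal and at 6.31, 6.15 and 6.38 in Dox arrays. ETV5 was at 10.52, 11.04 and 10.35 in basal and at 10.50, 10.46 and 10.42 in Dox arrays. Unlike ETV1, ETV5 was high in basal 2 alone. PHLDA1, a pleckstrin homology domain protein whose transcript is induced by growth factors, was at 9.56, 9.42 and 8.67 in basal and at 9.60, 8.67 and 8.29 in Dox arrays. Its division of arrays was that of ETV1, with the lowest value in Dox 3. The array named basal 2 was the highest of the 6 in 9 of the 10 genes, PHLDA1 being the exception, and in 27.9% of all genes.

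**Figure D1:**
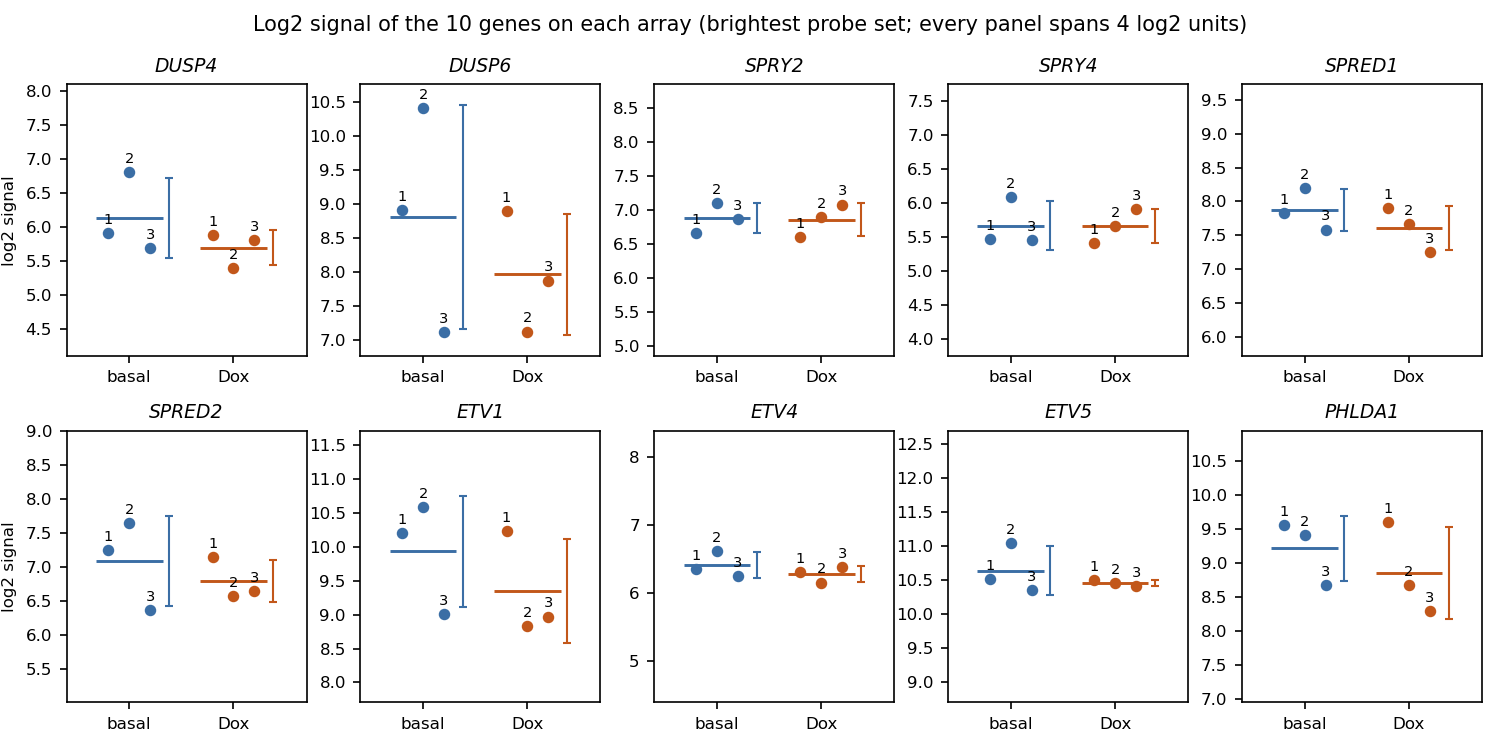
Log2 signal (y axis, brightest probe set) of the 10 genes by labelled group (x axis), each point an array numbered within its group, with lines for the mean and bars for the SD of 3 arrays. DUSP6, SPRED2, ETV1 and PHLDA1 were high in basal 1, basal 2 and Dox 1, and no gene separated the labelled groups.

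The comparison of the 3 Dox with the 3 basal arrays was designed to ask which transcripts respond to SF-1 induction, although NR5A1 did not pass in it, and none of the 10 genes passed. The mean difference was -0.85 ± 0.84 (SE) for DUSP6, -0.59 ± 0.51 for ETV1, -0.44 ± 0.30 for DUSP4 and -0.36 ± 0.38 for PHLDA1. For the others it was -0.30 ± 0.34 in SPRED2, -0.27 ± 0.23 in SPRED1, -0.18 ± 0.19 in ETV5, -0.13 ± 0.14 in ETV4, -0.02 ± 0.18 in SPRY2 and -0.01 ± 0.21 in SPRY4. All 10 means were lower in Dox, as were those of 50.2% of all genes, with a median of -0.28 over the members and 0.00 over all genes. Without basal 2, however, the difference was 0.09 in SPRY2, 0.20 in SPRY4 and 0.02 in ETV5, and that of DUSP6 shrank to -0.05.

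In limma 0 of 10 members passed an adjusted p of 0.05, as did 0 of all genes (0.0%), and 0 of the members had an unadjusted p under 0.05 against 0.551% of all genes. The labelled groups overlapped in all 10 members, while they did not in 3.17% of all genes (1.68% with Dox lower). The exact two-sided permutation p was 0.3 for ETV1, 0.4 for DUSP4 and 0.5 for DUSP6 and lay between 0.5 and 1.0 in the others, where 3 against 3 arrays cannot go below 0.1. Between single arrays, Dox 1 minus basal 1 lay between -0.10 and 0.06 in the 10 genes and Dox 2 minus basal 3 between -0.29 and 0.21. In DUSP6 these differences were -0.02 and 0.01, while Dox 3 minus basal 2 was -2.54, or 5.81-fold lower. The first 2 pairs were formed because their arrays were nearly identical, so small differences in them follow from that choice.

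**Figure D2:**
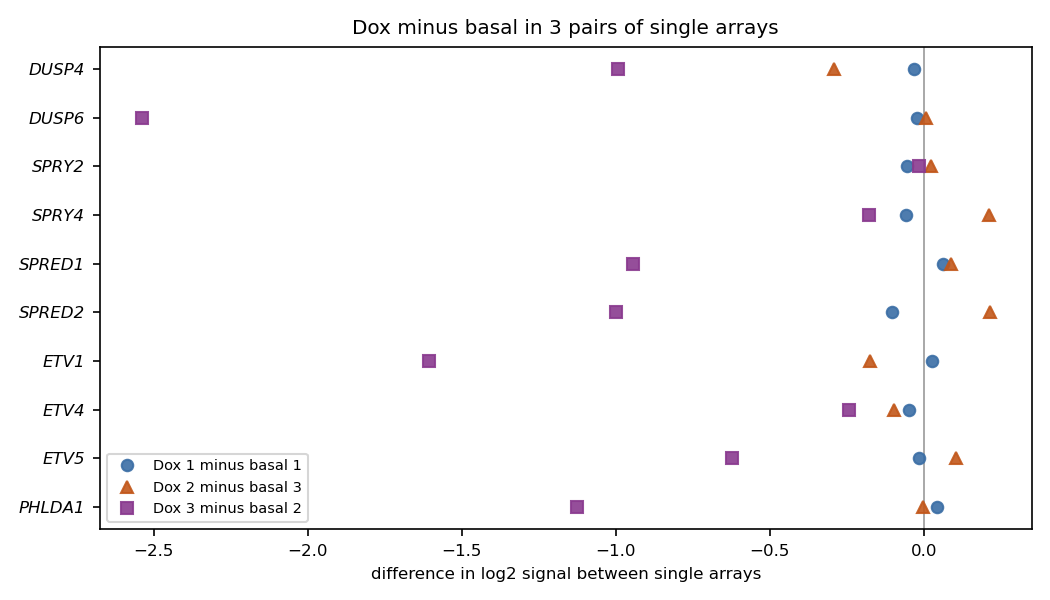
Dox minus basal (x axis, log2) for 3 pairs of single arrays in the 10 genes (y axis), each point the difference between 2 arrays, with no error. Dox 1 minus basal 1 and Dox 2 minus basal 3 lay between -0.29 and 0.21, and Dox 3 minus basal 2 reached -2.54 in DUSP6.

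Dox 3 and basal 2 are arrays of 1 array set with opposite labels and no near-identical partner. Dox 3 was the lower in 10 of the 10 genes (51.4% of all genes), with a median of -0.97 over the members and -0.01 over all genes. It was at least 2-fold lower in DUSP6, ETV1 (-1.61) and PHLDA1 (-1.13), 3 of 10 members against 0.662% of all genes. SPRED2 (-0.999), DUSP4 (-0.99) and SPRED1 (-0.94) lay just short of 2-fold, ETV5 was at -0.62 and ETV4 at -0.24. SPRY4 (-0.18) and SPRY2 (-0.02) were the nearest to 0. With 1 array on each side these differences have no test. Basal 2 was also the highest array in 9 of the 10 genes, so arrays of its own label lay below it too. Between basal 2 and basal 3, both labelled basal, the DUSP6 difference was 3.30, against 2.54 between basal 2 and Dox 3. The median absolute difference over the members was 0.72 and 0.97 in these pairs.

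A further comparison set Dox 2 and Dox 3 against basal 1 and basal 2 with the array set as a block, which leaves out basal 3 and Dox 1, one array of each near-identical pair. Here DUSP6 changed by -2.17 ± 0.16 (4.49-fold lower), ETV1 by -1.49 ± 0.11 (2.81-fold lower), PHLDA1 by -1.01 ± 0.12, SPRED2 by -0.84 ± 0.13 and DUSP4 by -0.76 ± 0.15 (SE, n = 2 each). The others did not pass, with SPRED1 at -0.55 ± 0.17 (adjusted p = 0.0870), ETV5 at -0.34 ± 0.13 (0.165), ETV4 at -0.22 ± 0.13 (0.428), SPRY2 at 0.11 ± 0.13 (0.767) and SPRY4 at 0.01 ± 0.14 (0.989). So both phosphatases, 1 of 3 PEA3 factors, 1 of 4 Sprouty and SPRED adaptors and PHLDA1 were called lower, and 0 of the 10 higher. The adjusted p was 1.18e-05 for DUSP6 and for ETV1, 0.000287 for PHLDA1, 0.00253 for SPRED2 and 0.00806 for DUSP4.

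The 5 of 10 members called, all lower, compare with 6.99% of all genes called in either direction, 3.58% lower and 3.42% higher, and the 3 at least 2-fold lower with 0.592%. Dox 2 lay below basal 1, and Dox 3 below basal 2, in 8 of 10 members and in 31.7% of all genes, the exceptions being SPRY2 and SPRY4. Between Dox 2 and basal 1 alone, DUSP6 (-1.79) and ETV1 (-1.37) were over 2-fold lower, as were 0.743% of all genes. In the four-array comparison only basal 1 has a title in words. The difference between Dox 2 and basal 1, which enters each value of that comparison, therefore also crosses this change of label style. Basal 3, which has a coded title and the label of basal 1, lay below basal 1 by 1.80 in DUSP6, and Dox 2 by 1.79. The median absolute difference from basal 1 over the members was 0.24 in basal 3 and 0.38 in Dox 2. Basal 3 and Dox 2 are a near-identical pair, so like values follow from that. How much of the difference goes with label style was not tested. The arrays left out differed the other way, with Dox 1 minus basal 3 at 1.78 in DUSP6, 1.22 in ETV1 and 0.93 in PHLDA1, and 2 of 10 members lower. The arrays left out were chosen from these data, and the fit has 1 residual degree of freedom, so its p-values are not independent evidence. Members too were chosen with earlier results of these data known, so their shares beside those of all genes are not independent evidence either. Without the block the differences were the same, their SEs were larger and 0 of 10 members passed. When basal 1 and Dox 2 were left out in place of basal 3 and Dox 1, with the block kept, 0 of 10 passed and DUSP6 was at -0.38 ± 1.09, ETV1 at -0.19 ± 0.73, SPRED2 at -0.11 ± 0.47, PHLDA1 at -0.10 ± 0.54 and DUSP4 at -0.40 ± 0.33. Which of the arrays carry a wrong label, if any, was not tested.

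Probe sets of 1 gene gave unequal differences. In the four-array comparison 15 of the 32 probe sets passed downward, with p-values adjusted over all 54613, of which 2.09% did so. All 3 probe sets of DUSP6 passed (-2.17 to -1.68), as did all 5 of ETV1, which ranged from -1.49 to -0.58. Of 6 sets for PHLDA1, 4 passed, and the 2 others (217998_at and 218000_s_at) were at -0.21 and -0.20. Of 3 sets for DUSP4, 2 passed, and 1 of 3 did for SPRED2. A passing set of ETV1 (221910_at) and one of DUSP4 (204014_at) also lay below the array median on all 6 arrays, so a level above background is not established for them. The 2 further sets of SPRED2, 212466_at and 214026_s_at, were at -0.04 each and below the array median on all 6 arrays, so they were not shown to be above background. With the median over probe sets in place of the brightest, SPRED2 was at -0.04 ± 0.12 and lost its call, and ETV1 was at -0.67 ± 0.12.

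None of the 5 sets of ETV5 (-0.38 to -0.04), the 3 of SPRED1 (-0.55 to -0.34) or the 2 of ETV4 (-0.40 to -0.22) passed. The second set of ETV4, 211603_s_at, was at 6.25, 6.63 and 6.18 in basal and at 6.13, 6.03 and 6.04 in Dox arrays. There the labelled groups did not overlap, at a difference of -0.28 ± 0.15 (exact permutation p = 0.1, adjusted p = 1.0 in limma). It was chosen here after its values were seen. By the brightest probe set, the labelled groups did not overlap in 3.17% of all genes (1.68% with Dox lower). The share over all probe sets was not computed, so this set is not shown to stand out. Over all 32 probe sets, 30 were lower in Dox in each of the comparisons, against 50.6% of all sets in the six-array and 50.9% in the four-array one. Probe sets of a gene share its transcript and are not replicates.

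**Figure D3:**
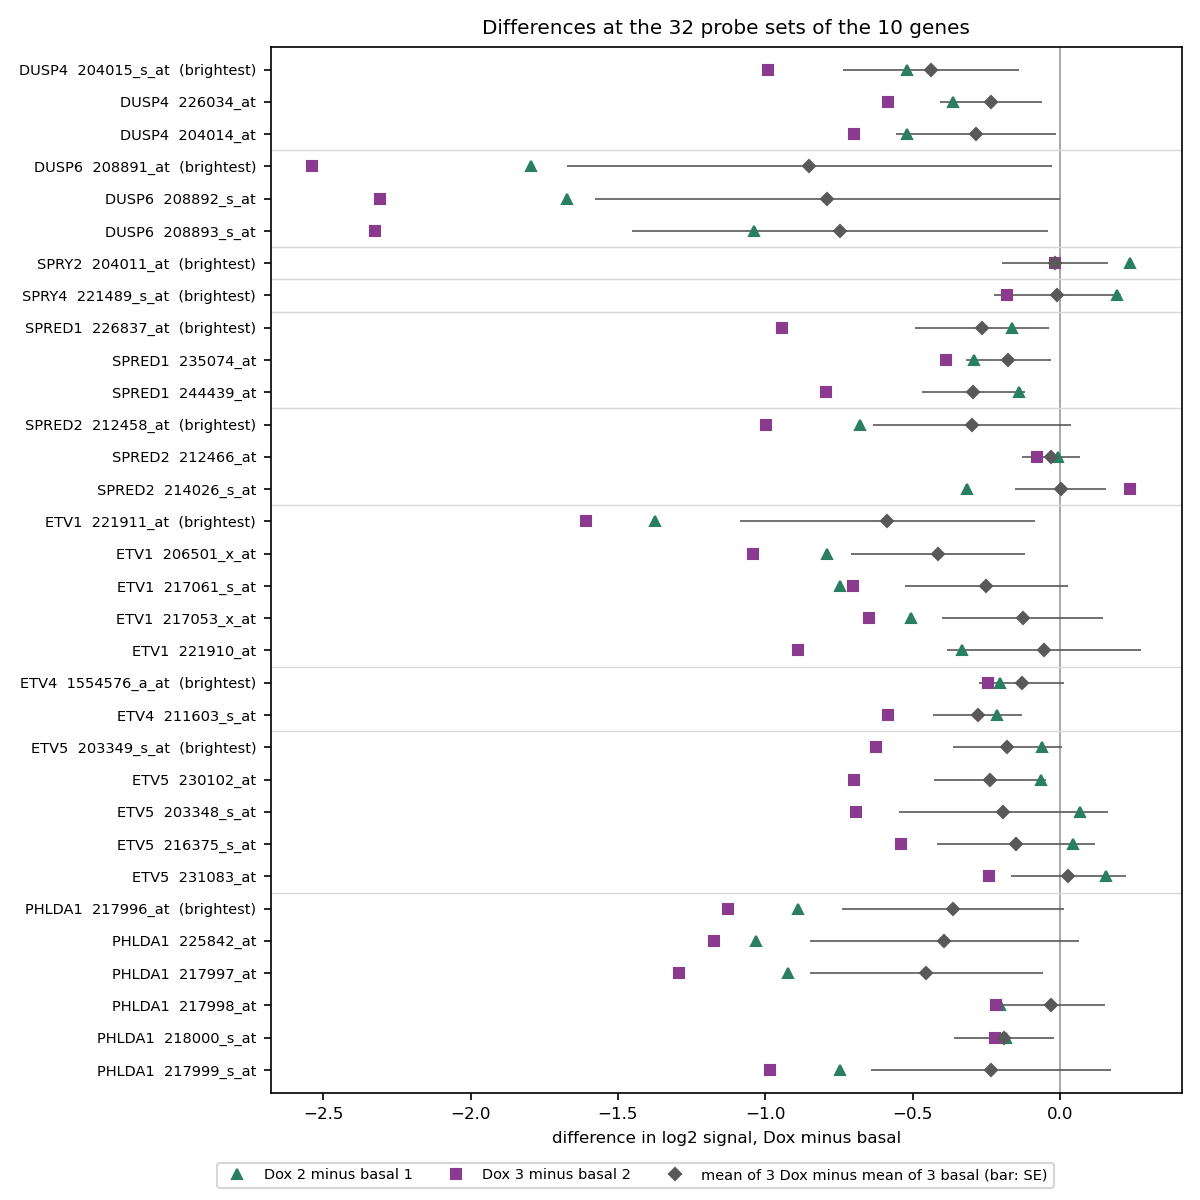
Dox minus basal (x axis, log2) at the 32 probe sets (y axis, by gene), with diamonds for the mean difference over 6 arrays, bars for its SE, and triangles and squares for 2 single-array differences. Dox 3 minus basal 2 lay between -2.54 and -2.31 in the 3 sets of DUSP6 and between -0.999 and 0.24 in those of SPRED2.

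Other genes of the pathway did not share one direction. In 6 lists with 118 measured genes, 0 passed in the six-array comparison, and 9 rose and 4 fell in the four-array one, to which the values that follow belong. The lists do not separate genes that ERK raises from those it lowers, so a rise or fall is of transcript level alone. Of 19 other feedback genes, 1 rose and 1 fell (median 0.06, against -0.65 over the 10 members and -0.01 over all genes). DUSP2, a nuclear phosphatase of MAP kinases, rose by 1.50 ± 0.15 (adjusted p = 0.000114), against 0.68 ± 0.46 over all 6 arrays. It was at 6.22, 5.71 and 7.17 in basal and at 6.24, 7.43 and 7.50 in Dox arrays, so it was low where DUSP6 was high. ERRFI1, an inhibitor of the EGF receptor, changed by -0.50 ± 0.11. The phosphatases DUSP5 (0.40 ± 0.12, adjusted p = 0.0842) and DUSP10 (0.44 ± 0.17, adjusted p = 0.177) did not pass.

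Among 24 receptor tyrosine kinases and adaptors, 3 rose and 0 fell (median 0.07). The stem cell factor receptor KIT rose by 2.65 ± 0.13, AXL, the receptor for GAS6, by 3.11 ± 0.18, and the FGF receptor FGFR4 by 1.93 ± 0.12. Over all 6 arrays the differences were 0.83 ± 1.00 for KIT, 1.04 ± 1.13 for AXL and 0.67 ± 0.72 for FGFR4 (adjusted p = 1.0 in limma). KIT was at 6.41, 6.15 and 9.24 in basal and at 6.44, 9.13 and 8.73 in Dox arrays, again low in basal 1, basal 2 and Dox 1. AXL was below the array median in those 3 arrays (4.71, 5.44 and 5.28) and not shown to be above background there. Of 19 genes from RAS to ERK, 2 rose and 0 fell (median 0.01), the scaffold KSR1 (0.70 ± 0.15) and the RAS exchange factor RASGRP1 (0.65 ± 0.17). The RPS6KA1 kinase, a substrate of ERK, was at -0.38 ± 0.12 (adjusted p = 0.0951).

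Of 21 immediate early genes, transcription factors and other genes induced within minutes by ERK and other pathways, 0 rose and 3 fell (median -0.05). These were the orphan receptor NR4A2 (-0.72 ± 0.14), the Krüppel-like factor KLF10 (-0.58 ± 0.12) and ATF3 (-0.67 ± 0.17), and CCN1, a matrix protein, was at -0.45 ± 0.12 (adjusted p = 0.0527). NR4A2 was below the array median in 4 of the 6 arrays. Of 22 ETS factors outside the PEA3 group, 2 rose and 0 fell (median -0.02), ELF4 by 0.97 ± 0.13 and ETS2 by 0.65 ± 0.14, and ETS2 was at 4.99 in basal 2, below the array median. Of 13 other genes used as ERK readouts, BCL2L11, which encodes the cell death protein BIM, rose by 0.49 ± 0.13, and 0 fell (median -0.03).

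**Figure D4:**
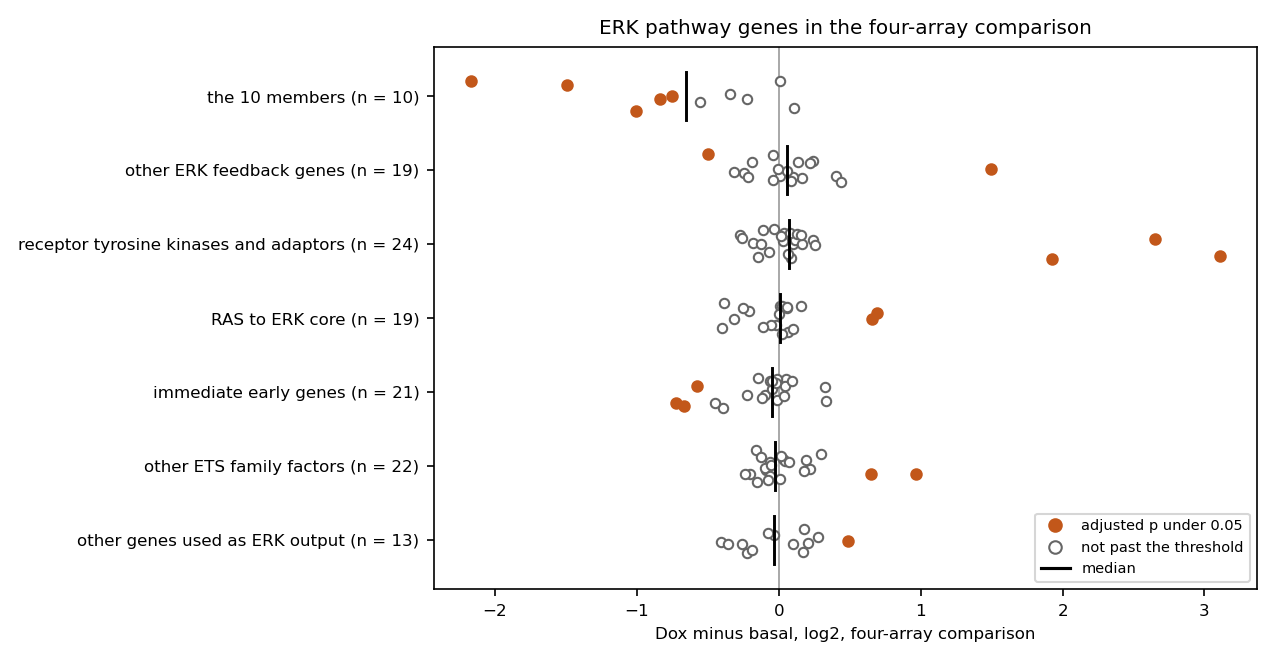
Dox minus basal in the four-array comparison (x axis, log2) for the 10 members and 6 further lists (y axis), each point a gene, filled where the adjusted p was under 0.05, with a line at the median. The members' median was -0.65, and those of the 6 further lists lay between -0.05 and 0.07.

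The genes closest to DUSP6 in profile over the 6 arrays, by root mean square distance between centred log2 values, were COL15A1 (0.164), a basement membrane collagen, the chemokine receptor CXCR4 (0.271), the aromatase CYP19A1 (0.291), CCN3 (0.349) and the steroid dehydrogenase HSD3B2 (0.359). COL15A1 was at 8.64, 9.80 and 6.89 in basal and at 8.61, 7.06 and 7.59 in Dox arrays. HSD3B2, a marker of the steroidogenic cell, was at 6.49, 7.89 and 5.003 in basal and at 6.36, 5.51 and 6.07 in Dox arrays. It was highest in basal 2, as was DUSP6, and lay below the array median in basal 3 and Dox 2. These genes were picked for likeness to DUSP6 over the same arrays, so a shared highest array and like differences follow largely from that. In the four-array comparison HSD3B2 changed by -1.40 ± 0.18 and CYP19A1 by -1.52 ± 0.15, and over all 6 arrays they were at -0.48 ± 0.67 and -0.50 ± 0.66. CYP19A1 too lay below the array median in basal 3 and Dox 2. Of the 11 adrenocortical markers measured, 1 rose and 2 fell in the four-array comparison (median -0.23), and the median of Dox 3 minus basal 2 was -0.02. The part of the cells' steroidogenic state in the values of DUSP6 was not tested.

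The genes closest to ETV1 were the circadian repressor BHLHE41 (0.0943), the transcription factor DACH1 (0.118), the growth factor PDGFD (0.129), FRY (0.131) and EPS8 (0.137), an adaptor of the EGF receptor. BHLHE41 was at 10.17, 10.63 and 8.84 in basal and at 10.13, 8.75 and 9.08 in Dox arrays. EPS8 was at 8.74, 9.35 and 7.61 in basal and at 8.77, 7.67 and 7.83 in Dox arrays. In each of these 5 genes the 3 highest arrays were basal 1, basal 2 and Dox 1, as in ETV1, which follows largely from their choice by likeness. The likeness is a description over 6 arrays, of which 2 pairs were nearly identical.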

How the data were processed

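Total RNA from cells labelled basal (3 samples) and Dox (3 samples) was hybridised to HG-U133 Plus 2.0 arrays. The deposited table holds 1 log2 signal per probe set and array, made by the authors with GCRMA per the submitters' processing notes, without a version, and the methods name Affymetrix console software. A joint normalization of the 6 arrays is not described in the sources used here. The number of arrays limits the precision. Background correction by probe sequence affects dim probe sets most.

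Of 54613 probe sets, 41091 had 1 gene symbol, 1801 several and 11721 none, and 0 sets with several named a member. Each of 19775 genes was represented by its brightest probe set by mean over 6 arrays. Updating symbols through gene identifiers changed 0, and 42 could not be checked. Pathway genes without a row in this gene table are not analysed here.

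Groups were compared in limma 3.58.1 (lmFit, then eBayes with trend) in R 4.3.3 on the deposited values, with Benjamini-Hochberg adjustment over all genes, or over all probe sets for single sets, at 0.05. Tests were two-sided. Dim genes were kept in. The fits were tried on simulated data with independent noise in each array. Those data held no near-identical pairs and no choice of arrays, so they cannot show how these affect the calls. Promoter windows were from a RefSeq table (GRCh38.p14), those of DUSP4, ETV4 and ETV5 are not analysed here, and GGAA was added to the motifs searched after the sequences were seen. Figures used matplotlib 3.10.9 under Python 3.11.15. The rule for named genes took the 10 members, NR5A1, up to 4 genes of each pathway list by the smallest adjusted p in the four-array comparison, and the 5 genes nearest in profile to DUSP6 and to ETV1. Members, lists and the arrays left out were chosen with earlier results of these data known. Alternatives were the median over probe sets, no variance trend, quantile normalization, a filter on dim genes, blocks for array set or label style (basal 1 and Dox 1 have titles in words, the others codes), the fold rule of the methods and leaving out arrays.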

Additional observations from a re-analysis of the deposited data

How the results depend on the processing

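In the six-array comparison 0 genes and 0 members passed under each alternative run, and leaving out any 1 array gave counts of 0 to 0 for both. Of the member differences under alternatives 140 kept their direction and 10 turned. Part of the 140 could not turn, so this count does not measure stability. Leaving out the variance trend, filtering dim genes or adding either block returned the main difference of each member (DUSP6 at -0.85 in each). The differences without basal 1 and Dox 2 were likewise the same with and without the block. Leaving out 1 array moved DUSP6 from -1.70 (without basal 3) to -0.05 (without basal 2), ETV1 from -1.05 to -0.26, DUSP4 from -0.66 to -0.10, PHLDA1 from -0.74 to -0.08, SPRED2 from -0.66 to -0.02, SPRY2 from -0.13 to 0.11, SPRY4 from -0.13 to 0.20, ETV5 from -0.32 to 0.0239 and NR5A1 from -0.14 to 0.29. Without basal 2 and Dox 3 the direction turned in SPRY4 (0.0759), SPRED1 (0.0748), SPRED2 (0.0540), ETV5 (0.0444), PHLDA1 (0.0194) and NR5A1 (-0.19). Without basal 1 and Dox 2, NR5A1 was at -0.13 with and without the block.

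In the four-array comparison 1383 genes and 5 members passed. Without the array set block, 0 genes (837 at an unadjusted p under 0.05) and 0 members (4 at an unadjusted p under 0.05) passed, with the differences as before and larger SEs (0.54 for DUSP6, 0.23 for ETV1). With label style as the block in its place, 0 genes (1070 at an unadjusted p under 0.05) and 0 members (5 at an unadjusted p under 0.05) passed, with SPRY2 at -0.11 and SPRY4 at -0.30, while DUSP6 was at -2.91 ± 0.42, ETV1 at -1.68 ± 0.33, DUSP4 at -1.20 ± 0.27, SPRED2 at -1.04 ± 0.28 and PHLDA1 at -0.94 ± 0.36. Among these arrays basal 1 is the only one of its label style. The differences in that fit therefore come from basal 2 against Dox 2 and Dox 3. The cause of the lost calls was not tested. The methods' rule of 2-fold with an unadjusted p under 0.05 took 302 genes and 3 members, DUSP6, ETV1 and PHLDA1. With the median over probe sets, no variance trend, quantile normalization or the filter on dim genes, 4 or 5 members passed, and SPRED2 was lost with the median. Leaving out 1 more array was not run with the block, since no residual degree of freedom is left. No paired analysis was possible because the labels give no replicate numbers shared between the groups. Levels below the array median were not shown to be above background.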
